A study of Mus musculus with 64 samples.

Results

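Resting regulatory T (Treg) cell precursors in which Foxp3 had been switched on for 3 or 7 days (4 libraries) were compared with resting precursors in which it stayed off (4 libraries), 8 of the 64 libraries in the series. The rule took the resting libraries of days 3 and 7 and set plusFoxp3 against minusFoxp3 with the day as a block, over the 20549 genes with a mean count of at least 10. Foxp3 is the transcription factor that specifies Treg cells, CD4 T cells that restrain immune responses. These cells depend on interleukin 2 (IL-2), which they bind through a receptor that includes the chains CD25 (Il2ra) and CD122 (Il2rb), and they show surface molecules such as CTLA-4, GITR (Tnfrsf18) and GARP (Lrrc32). Cells with an active but non-coding Foxp3 locus, called Treg "wannabe" cells, carry part of this programme without the protein, so that restoring Foxp3 in them asks what the factor adds.

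All 8 libraries came from spleen and lymph nodes of mice with the Foxp3-LSL allele, in which a loxP-flanked Thy1.1 reporter and STOP cassette stand before a Foxp3-GFP reading frame. The minusFoxp3 cells (genotype label Foxp3-LSLCD4-WT) were sorted as Thy1.1+ GFP- cells from mice without Cre, and the plusFoxp3 cells (Foxp3-LSLCD4-CreERT2) as GFP+ cells from mice with the tamoxifen-inducible recombinase CreERT2 under Cd4 control. Both arms received 4-hydroxytamoxifen (4-OHT), 3 or 7 days earlier, and each arm held 2 libraries a day. The mice were adult heterozygous females, which also had Treg cells using the intact Foxp3 allele. Resting cells were gated as CD62L high and CD44 low. Each plusFoxp3 mouse carried Cre and each minusFoxp3 mouse lacked it, so the recombinase and the restored factor cannot be told apart within these 8 libraries. The sorting gates differed in the same way. For comparison only, 4 resting libraries of day 0 (no treatment, both genotypes), 8 resting libraries of days 14 and 28, 8 active (CD62L low) libraries of days 3 and 7, and 2 libraries of untreated resting Treg cells with the Foxp3GFP allele (GFP Treg) were used.

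The 8 libraries held between 35097257 and 51767587 counted read pairs. Values are given as CPM, the count of a gene scaled to a library total of 1000000. A gene counted as called where edgeR's quasi-likelihood test gave it a p under 0.05 after Benjamini-Hochberg adjustment over all genes. CD4 T cell markers summed to between 11700 and 12900 CPM in minusFoxp3 and between 10300 and 11200 CPM in plusFoxp3 libraries. The 5 resting markers summed to between 5980 and 7060 CPM and between 4840 and 6130 CPM, against at most 2500 CPM in the active libraries. The 5 activation markers stood at between 70.7 and 105 CPM in minusFoxp3 and between 124 and 174 CPM in plusFoxp3 libraries, so these ranges did not overlap. Itgae, at adjusted p = 0.000502, was the only one of these 5 that was called, and the part of the activation markers in the results below was not tested. B cell (8 markers), myeloid (8), dendritic (5), natural killer (5) and erythroid (5) markers summed to at most 34.2, 19.3, 1.88, 4.83 and 4.26 CPM in any of the 8 libraries. The natural killer sum was higher and the erythroid sum lower in every plusFoxp3 library, with no member called.

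Foxp3 itself checked the labels. It stood at 81.5 and 59.7 CPM in the minusFoxp3 libraries of day 3 and at 73.5 and 70.2 CPM in those of day 7, and at 571, 575, 448 and 607 CPM in the plusFoxp3 libraries of days 3 and 7. Foxp3 lies at 7439883 to 7461484 on chromosome X (GRCm39). The ranges lay far apart, with a rise of 7.92-fold (log2 fold change 2.99, SE 0.14, adjusted p = 3.65e-06). Thy1, whose product includes the Thy1.1 reporter of the allele as well as the native Thy-1 protein, went the other way. It was at 490, 419, 439 and 419 CPM without Foxp3 and at 48.5, 64.3, 76.9 and 62.8 CPM with it (log2 fold change -2.78, SE 0.13, adjusted p = 3.65e-06). Reads of the reporter and of the native gene were counted together.

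**Figure D1:**
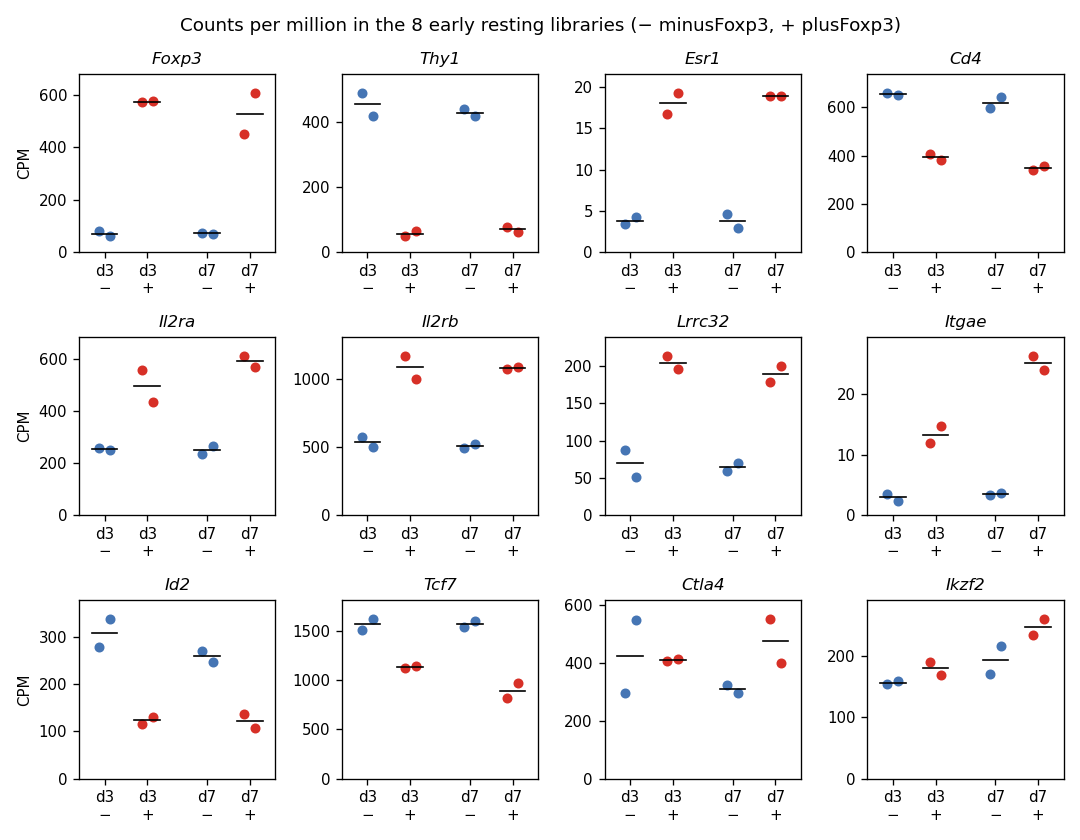
CPM (y axis, from 0) of 12 genes in each of the 8 libraries, by day and arm, with blue points for minusFoxp3, red points for plusFoxp3 and a black bar at the mean of 2 libraries. The arms are apart for the first 10 genes and overlap for Ctla4 and Ikzf2.

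Esr1 encodes the oestrogen receptor from which the hormone-binding part of CreERT2 derives. Its level was 3.39, 4.22, 4.64 and 2.87 CPM without Cre and 16.8, 19.3, 18.9 and 18.9 CPM with it (log2 fold change 2.32, SE 0.19, adjusted p = 0.000502). Untreated day 0 cells showed the same split by genotype, at 3.22 and 2.93 CPM without Cre and 26.1 and 17.5 CPM with it. Cd4, the co-receptor gene that drives the recombinase, fell from 660, 651, 597 and 642 CPM to 405, 383, 341 and 357 CPM (log2 fold change -0.74, SE 0.09, adjusted p = 0.00536). At day 0 Cd4 read 463 and 644 CPM without Cre and 447 and 449 CPM with it, and GFP Treg cells, which have no Cre, read 537 and 457 CPM. Whether the lower Cd4 level goes with Foxp3 or with the Cre allele cannot be told apart.

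Over both days 261 of the 20549 genes were called, which is 1.27% of them. Of these, 190 were higher (0.925%) and 71 lower (0.346%) with Foxp3, and 174 differed by a log2 value of at least 1. The arms did not overlap for 251 of the 261, against 8.72% of all genes tested (4.22% with plusFoxp3 above and 4.5% with it below). Each of the 261 had the same sign at day 3 and at day 7. Both counts come from the libraries that made the call, which favours them, so they describe the called genes and test nothing. The number called fell to 95 without replicate 1 and to 88 without replicate 2 of the day 3 minusFoxp3 libraries, to 55 and 128 without replicates 1 and 2 of day 3 plusFoxp3, and to 48 without replicate 1 of day 7 minusFoxp3. In every fit that left out 1 library 43 genes were called, among them Foxp3, Thy1, Il2ra, Il2rb, Lrrc32, Itgae, Id2, Mki67 and Ccnb1.

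**Figure D2:**
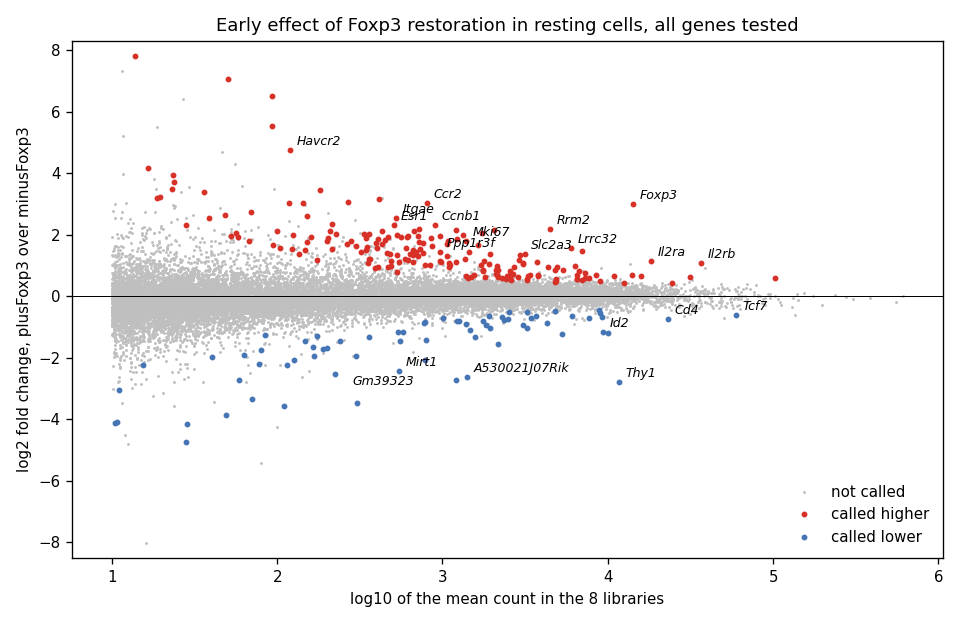
Log2 fold change of plusFoxp3 over minusFoxp3 (y axis) against log10 of the mean count in the 8 libraries (x axis) for 20549 genes, with 190 called higher in red, 71 called lower in blue and the others in grey. Foxp3 and Thy1 stand apart among the abundant genes, and Il2ra, Il2rb, Tcf7 and Cd4 are called at smaller changes.

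The IL-2 receptor chains Il2rb and Il2ra rose, while Il2rg did not pass the test (log2 fold change 0.12, SE 0.08, adjusted p = 0.595). Il2rb, the signalling chain CD122, was at 572, 501, 495 and 521 CPM without Foxp3 and at 1169, 1001, 1071 and 1088 CPM with it. Every plusFoxp3 library stood above every minusFoxp3 library, by 2.13-fold (log2 fold change 1.09, SE 0.10, adjusted p = 0.000716). Il2ra, the high-affinity chain CD25, rose in the same manner from 259, 250, 235 and 268 CPM to 559, 437, 613 and 571 CPM (log2 fold change 1.14, SE 0.11, adjusted p = 0.00138). Cish, a suppressor of cytokine signalling that STAT5 induces, went from 147, 124, 125 and 111 CPM to 183, 168, 168 and 188 CPM (log2 fold change 0.52, SE 0.10, adjusted p = 0.0338). Its adjusted p lay between 0.0447 and 0.148 when single libraries were left out. Of the 16 genes of the IL-2 and STAT5 list these 3 rose (0.925% of all genes did) and none fell. The list median was 0.18 against -0.02 over all genes tested.

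Genes known to be higher in Treg cells moved in part. Of 30 such genes 8 rose (0.925% of all genes did), 22 did not pass the test and none fell, with a median log2 fold change of 0.43 against -0.02 over all genes tested. The risers were Itgae, Il2rb, Lrrc32, Il2ra, Tnfrsf9, Gpr83, Tnfrsf1b and Nrp1. Itgae, the αE chain of the integrin CD103 that holds T cells in epithelia, was at 3.53, 2.38, 3.33 and 3.70 CPM without Foxp3. With Foxp3 it read 11.9 and 14.8 CPM at day 3 and 26.3 and 24.0 CPM at day 7 (log2 fold change 2.55, SE 0.21, adjusted p = 0.000502). Untreated day 0 cells read 1.22 and 1.60 CPM without Cre and 3.19 and 6.67 CPM with it (log2 fold change 1.80, SE 0.38, adjusted p = 0.658). The early effect differed from that by 0.75 (SE 0.45, adjusted p = 0.717). In active minusFoxp3 cells Itgae read 40.6, 56.3, 87.0 and 120 CPM, and it was called between the active arms too (1.72, adjusted p = 0.00316). A part of active-like cells in its rise was not tested. The annotated span of Itgae shares 2810 bases with that of Haspin on the other strand, a gene at a mean of 10.6 CPM without and 17.5 CPM with Foxp3. These spans run from the first to the last annotated base, and whether the counted parts overlap was not tested. Lrrc32, whose product GARP displays latent TGF-β, rose from 87.1, 51.9, 59.4 and 70.0 CPM to 213, 195, 178 and 200 CPM (log2 fold change 1.59, SE 0.15, adjusted p = 0.00129).

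Other genes often used to identify Treg cells were already present without Foxp3. Ctla4, an inhibitory receptor that takes up CD80 and CD86, was at 296, 549, 322 and 297 CPM in minusFoxp3 and 405, 412, 551 and 398 CPM in plusFoxp3 libraries. The arms overlapped, and the difference did not pass the test (log2 fold change 0.32, SE 0.20, adjusted p = 0.529). Tnfrsf18, the receptor GITR, read 353, 241, 307 and 252 CPM against 345, 311, 408 and 373 CPM (adjusted p = 0.270). Ikzf2, the transcription factor Helios, read 154, 158, 170 and 215 CPM against 189, 169, 233 and 259 CPM (adjusted p = 0.241). A p that misses the threshold does not show that these genes were equal.

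Among TNF family genes the called receptors rose and the called ligands fell. Tnfrsf9, the costimulatory receptor 4-1BB, went from 96.1, 74.6, 101 and 105 CPM to 175, 162, 202 and 189 CPM (log2 fold change 0.99, SE 0.11, adjusted p = 0.00286). Tnfrsf8 (CD30) was low, between 0.633 and 1.34 CPM without Foxp3 and between 3.44 and 8.12 CPM with it (log2 fold change 2.61, adjusted p = 0.0103). In active minusFoxp3 cells it read 8.78, 6.88, 19.8 and 16.6 CPM, and a part of active-like cells in its rise was not tested. Tnfsf8, which encodes the CD30 ligand, fell from 185, 259, 189 and 198 CPM to 119, 137, 121 and 124 CPM (log2 fold change -0.70, SE 0.12, adjusted p = 0.0205). Tnfrsf1b, the receptor TNFR2, rose by 0.60 on the log2 scale (adjusted p = 0.0156), and its arms overlapped because the day 7 values were lower in both. At day 0 it read 77.7 and 144 CPM without Cre and 191 and 181 CPM with it (log2 fold change 0.74, SE 0.25, adjusted p = 0.658). The early effect differed from that by -0.14 (adjusted p = 0.917). Of the 13 receptors of the list that were tested 3 rose, where 0.925% of all genes did, and 10 did not pass.

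Genes known to be lower in Treg cells were called lower in 3 of 15 cases (0.346% of all genes were), with none higher. Their median log2 fold change was -0.33 against -0.02 over all genes tested. Id2, an inhibitor of E proteins, fell from 279, 339, 272 and 248 CPM to 116, 131, 138 and 107 CPM (log2 fold change -1.17, SE 0.11, adjusted p = 0.00129). Tcf7, which encodes TCF1, a factor of naive and memory T cells, fell from 1513, 1622, 1543 and 1604 CPM to 1126, 1146, 819 and 969 CPM (log2 fold change -0.61, SE 0.11, adjusted p = 0.0298), and was called in 2 of the 8 fits that left out 1 library. Cd40lg, the ligand by which helper T cells reach B cells, fell by 0.69 on the log2 scale (adjusted p = 0.0429), and was called in 1 of those 8 fits, with an adjusted p of up to 0.175. Pde3b, a phosphodiesterase, was at 41.7, 42.2, 35.1 and 63.7 CPM without Foxp3 and 32.3, 39.4, 19.0 and 32.0 CPM with it (adjusted p = 0.363). Sox4 (log2 fold change -0.40, adjusted p = 0.488) and Satb1 (0.18, adjusted p = 0.693), both transcription factor genes, did not pass either.

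Of 15 effector cytokine genes tested, Il4, Tnfsf8 and Cd40lg fell (0.346% of all genes did) and none rose, with a list median of -0.37. Il4, the signature cytokine of type 2 helper cells, was scarce, at 3.94, 5.32, 4.81 and 3.46 CPM without Foxp3 and 0.456, 1.26, 0.971 and 1.44 CPM with it (log2 fold change -2.06, SE 0.34, adjusted p = 0.0202). The groups did not overlap. In the list of 24 effector and activation genes, 4 rose (0.925% of all genes did), among them Itgae, Ccr2 and Prdm1, and Id2 fell (0.346%). Ccr2, a receptor for inflammatory chemokines, went from 4.26, 5.06, 2.42 and 3.27 CPM to 21.7, 22.5, 59.4 and 17.1 CPM (log2 fold change 3.02, SE 0.41, adjusted p = 0.0101). In active minusFoxp3 cells Ccr2 read 277.1, 545.4, 684.5 and 550.1 CPM. It was not called by edgeR in the active libraries (adjusted p = 0.53), and a part of active-like cells in its rise was not tested.

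Cell cycle genes held the highest share of called members of any pathway list. Of 18, all tested, 13 rose (0.925% of all genes did), 5 did not pass and none fell. The median log2 fold change was 1.68 against -0.02 over all genes tested. It was 1.62 at day 3 and 1.45 at day 7. Their summed level was 799 and 831 CPM at day 3 and 721 and 851 CPM at day 7 without Foxp3. With Foxp3 it was 1871 and 1471 CPM at day 3 and 1871 and 1081 CPM at day 7, so that all 4 libraries lay above all minusFoxp3 libraries. Ccnb1 encodes cyclin B1, which starts mitosis, and rose from 6.60, 6.30, 5.96 and 7.79 CPM to 33.5, 33.0, 45.5 and 16.7 CPM (log2 fold change 2.31, SE 0.28, adjusted p = 0.00518). Rrm2, the regulated subunit of ribonucleotide reductase, rose from 41.4, 34.0, 29.4 and 39.2 CPM to 198, 140, 218 and 81.1 CPM (log2 fold change 2.18, SE 0.27, adjusted p = 0.00563). Mki67, the proliferation antigen Ki-67, rose from 12.4, 18.6, 10.8 and 14.1 CPM to 56.0, 45.2, 54.0 and 33.2 CPM (log2 fold change 1.80, SE 0.20, adjusted p = 0.00376). In each of these 3 genes the second day 7 plusFoxp3 library was the lowest of its arm. In active minusFoxp3 cells Mki67 read 28.1, 45.2, 63.7 and 78.8 CPM and Rrm2 67.3, 56.3, 168 and 170 CPM. Between the active arms all 18 cell cycle genes were above 0 with a median of 0.70, and 1 was called higher (0.149% of all genes were). Whether active-like cells in the resting plusFoxp3 gate add to the cell cycle rises was not tested. In bulk libraries a larger share of cycling cells and more such RNA in each cell cannot be told apart.

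The members called numbered 5 without either replicate of day 3 minusFoxp3, without replicate 1 of day 3 plusFoxp3 or without replicate 1 of day 7 minusFoxp3, and 8 without replicate 1 of day 7 plusFoxp3. Pcna, the replication clamp, differed least (log2 fold change 0.24, adjusted p = 0.551) and was picked out here after its value was seen. Other genes with roles in division were among the named increases. Nek2, a centrosomal kinase, read between 0.424 and 2.91 CPM and between 9.02 and 25.8 CPM without and with Foxp3, and Pif1, a DNA helicase, between 0.233 and 1.23 CPM and between 3.76 and 6.78 CPM. Mtfr2, a regulator of mitochondrial fission, was no longer called when 1 library was left out in 5 of 8 fits.

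Promoters of mitotic genes are known for CCAAT boxes and for the cell cycle homology region (CHR), here searched as CCAAT and TTTGAA on both strands in the 250 bases before the start of the canonical GENCODE transcript. Among 19249 tested genes with such a window on GRCm39, 34.2% held CCAAT, 14.9% TTTGAA and 4.99% both. Of the 18 cell cycle genes 10 held CCAAT and 5 held both. These 5 were Ccnb2, Cdk1, Top2a and Aurkb, which were called higher, and Mcm2, which was not called (adjusted p = 0.111). Among genes called higher, 44.9% held CCAAT and 9.09% both, and among those called lower 23.5% and 1.47%. The promoters of Ccnb2 (chr9:70328875-70329124, minus strand), Cdk1 (chr10:69188769-69189018, minus strand) and Top2a (chr11:98915042-98915291, minus strand) are shown as examples from the 5 cell cycle genes that hold both. Matches on either strand are in capitals, 5′ to 3′ along the gene.
Ccnb2: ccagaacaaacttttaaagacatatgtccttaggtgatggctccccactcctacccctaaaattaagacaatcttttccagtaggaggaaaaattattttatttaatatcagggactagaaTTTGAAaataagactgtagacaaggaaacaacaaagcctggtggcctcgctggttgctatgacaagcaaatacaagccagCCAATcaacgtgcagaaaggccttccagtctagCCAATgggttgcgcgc
Cdk1: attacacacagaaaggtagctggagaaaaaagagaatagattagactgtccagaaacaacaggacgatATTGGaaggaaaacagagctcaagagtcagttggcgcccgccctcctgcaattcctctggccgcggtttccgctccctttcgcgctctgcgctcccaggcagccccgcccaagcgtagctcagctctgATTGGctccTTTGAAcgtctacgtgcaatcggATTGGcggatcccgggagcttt
Top2a: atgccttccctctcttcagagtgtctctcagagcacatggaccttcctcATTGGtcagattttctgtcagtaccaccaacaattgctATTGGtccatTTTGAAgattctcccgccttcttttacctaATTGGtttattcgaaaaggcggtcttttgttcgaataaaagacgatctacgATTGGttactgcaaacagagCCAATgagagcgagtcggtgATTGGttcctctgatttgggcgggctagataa
The Ccnb2 window has 2 CCAAT boxes and 1 TTTGAA, that of Cdk1 3 and 1, and that of Top2a 6 and 1. Ccnb2, a B-type cyclin, rose from 13.3, 13.3, 9.75 and 11.6 CPM to 51.3, 40.6, 64.4 and 29.0 CPM (log2 fold change 2.00, SE 0.23, adjusted p = 0.00416). Cdk1, the mitotic kinase (log2 fold change 1.88, adjusted p = 0.0157), and Top2a, a topoisomerase (1.33, adjusted p = 0.0284), rose with it. Ccnb1, Mki67 and Ccna2 rose with neither motif in this window. The letters TTCNNNGAA, which STAT factors bind, were in 6.46% of all windows and 9.09% of those of genes called higher, and the forkhead letters GTAAACA in 2.67% and 4.81%. Such matches describe the letters and show no binding.

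**Figure D3:**
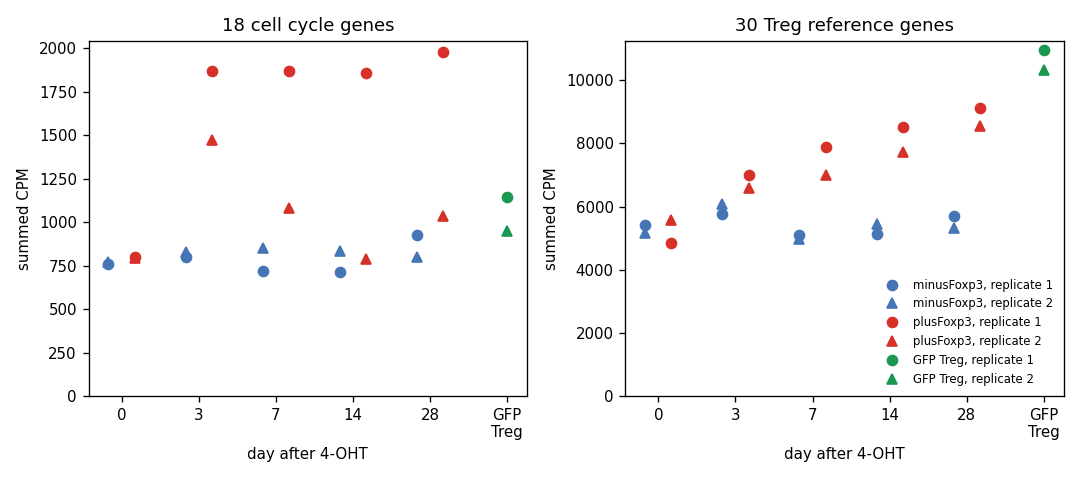
Summed CPM (y axis, from 0) of 18 cell cycle genes and of 30 genes known to be higher in Treg cells in each of 22 resting libraries, by day after 4-OHT, with circles for replicate 1 and triangles for replicate 2. PlusFoxp3 (red) and minusFoxp3 (blue) libraries lie close together at day 0 and apart at days 3 and 7, GFP Treg libraries are green, and in each plusFoxp3 pair of days 3 to 28 replicate 1 holds the higher cell cycle sum.

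In metabolism and survival single genes moved. Slc2a3, the glucose transporter GLUT3, rose from 36.6, 30.1, 45.0 and 46.3 CPM to 101, 90.6, 97.2 and 103 CPM (log2 fold change 1.36, SE 0.13, adjusted p = 0.00129). It was the only called gene of 15 in the glycolysis list (1.27% of all genes were called), whose median was 0.28. Bcl2l1, which encodes the survival protein Bcl-xL, rose by 0.86 (adjusted p = 0.0154) and Bbc3, which encodes the death-promoting protein PUMA, by 0.59 (adjusted p = 0.0382) on the log2 scale. They were called in 4 and 1 of the 8 fits that left out 1 library, with adjusted p of up to 0.0626 and 0.133. The other 12 of 14 tested BCL2 family genes did not pass, where 1.27% of all genes tested were called. In untreated day 0 cells the log2 fold changes by genotype were 0.525 for Bcl2l1 and 0.665 for Bbc3 (adjusted p = 0.658 for each). The early effects of Bcl2l1 and Bbc3 differed from these by 0.34 and -0.07 (adjusted p = 0.752 and 0.974). Havcr2, the inhibitory receptor TIM-3, had a low level and a large change, at 0.0228, 0.0866, 0.0636 and 0.655 CPM without Foxp3 and 4.07, 4.08, 8.98 and 2.32 CPM with it (log2 fold change 4.77, SE 0.75, adjusted p = 0.0163). Adam8, a cell surface metalloprotease, was at between 0.148 and 1.84 CPM without and between 3.37 and 9.43 CPM with Foxp3 (log2 fold change 3.45, SE 0.49, adjusted p = 0.0103). The arms did not overlap for either gene. In active minusFoxp3 cells Havcr2 read 23.3, 41.4, 43.1 and 51.0 CPM and Adam8 70.2, 137, 82.6 and 121 CPM. Neither was called by edgeR in the active libraries (adjusted p = 0.727 and 0.352). Whether active-like cells in the resting plusFoxp3 gate add to these rises was not tested.

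None of the tested members was called among 21 acute T cell receptor response genes, 16 adenosine and cyclic AMP genes, 18 lineage transcription factors, 19 proximal T cell receptor signalling genes, 16 interferon-stimulated genes, 17 oxidative phosphorylation genes or 5 sex-linked transcripts. Their medians lay between -0.17 and 0.05 on the log2 scale. One of 14 coinhibitory and costimulatory receptors (Havcr2), 1 of 16 naive and quiescence genes (Tcf7) and 3 of 24 homing genes (among them Itgae and Ccr2) were called, where 1.27% of all genes were, and a single call in a list this short is no result about the list.

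Among the named falls were 2 genes next to Thy1. Gm39323, a gene on the opposite strand, has its start 2324 bases before Thy1 on chromosome 9. It read 45.5, 44.5, 46.3 and 46.4 CPM without Foxp3 and 7.75, 6.53, 6.33 and 6.63 CPM with it (log2 fold change -2.71, SE 0.14, adjusted p = 7.50e-06). E230034D01Rik, 42710 bases before Thy1, fell from between 3.57 and 5.35 CPM to between 0.0570 and 0.638 CPM (log2 fold change -3.55, adjusted p = 0.0103). GFP Treg cells, whose allele has no Thy1.1 reporter, showed Thy1 at 61.5 and 81.3 CPM and Gm39323 at 3.71 and 6.90 CPM. Elsewhere, A530021J07Rik on chromosome 7 fell from 55.7, 32.6, 60.6 and 62.8 CPM to 11.3, 8.15, 7.62 and 6.63 CPM (log2 fold change -2.61, SE 0.26, adjusted p = 0.00129). Its annotated span shares 860 bases with that of 5930435M05Rik on the other strand, and the counting took no account of strand. Mirt1, a long non-coding RNA gene, fell from between 17.8 and 21.8 CPM to between 3.06 and 4.22 CPM (log2 fold change -2.42, SE 0.19, adjusted p = 0.000460). Wnt5b, a Wnt ligand (-2.51), Ggt5, a γ-glutamyltransferase (-2.06), Lypd6b (-1.93), Tst, a sulfurtransferase (-1.93), the serotonin receptor gene Htr2a (-1.72) and Gm37242 (-2.23) were other named falls, with adjusted p between 0.00536 and 0.0331. Wnt5b varied in other minusFoxp3 libraries, at 7.42 and 0.582 CPM at day 0 and 5.28 and 0.0231 CPM at day 28. It was not called in the fit of days 14 and 28 (log2 fold change -1.20, adjusted p = 0.622). When single libraries were left out, Htr2a ranged from -1.97 to -1.47 and Gm37242 from -2.55 to -1.89. The named falls were taken by size among called genes that averaged at least 100 counts and whose arms did not overlap, and genes with fewer counts were not ranked.

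At the Foxp3 locus, 26 annotated genes lie within 200000 bases and 15 were tested. Ppp1r3f, which shares 640 bases with the start of Foxp3 on the opposite strand, rose from 10.6, 10.1, 14.0 and 11.8 CPM to 32.0, 32.8, 24.2 and 33.8 CPM (log2 fold change 1.44, SE 0.17, adjusted p = 0.00518). In untreated day 0 cells it read 9.60 and 9.19 CPM without Cre and 20.5 and 11.8 CPM with it (log2 fold change 0.79, adjusted p = 0.658). Cacna1f, a calcium channel gene that starts 11837 bases beyond the end of Foxp3, rose from between 1.34 and 1.84 CPM to between 3.62 and 5.05 CPM (log2 fold change 1.38, adjusted p = 0.0247). Syp, 43225 bases beyond it, fell by 0.69 on the log2 scale (adjusted p = 0.0312), with overlapping arms. The other 12 did not pass, and the median of the 15 was 0.14. Of all genes tested 1.27% were called. Since the libraries do not mark strand, reads of Ppp1r3f and of upstream Foxp3 RNA cannot be told apart where they overlap.

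The days were then tested one at a time in the same fit. At day 3, 23 genes were called (0.112%), 17 higher (0.0827%) and 6 lower (0.0292%), and at day 7, 24 (0.117%), 15 higher (0.073%) and 9 lower (0.0438%). Called at both were Foxp3, Thy1, Gm39323, Itgae, Il2rb, Lrrc32, Id2, Slc2a3, Esr1, Mirt1, A530021J07Rik and Bub1b, 12 genes in all. Bub1b, a spindle checkpoint kinase gene, was named here for this overlap. Of the 17 genes called higher at day 3 all 17 were above 0 at day 7, where the median over all genes was near 0, and of the 15 called higher at day 7, 14 were above 0 at day 3, where 47.5% of all genes were. All 6 genes called lower at day 3 were below 0 at day 7, and all 9 called lower at day 7 were below 0 at day 3. The test of day 7 against day 3 called 0 of 20549 genes by edgeR, 1230 at an unadjusted p under 0.05 and 14 by DESeq2. Fits without replicates 1 or 2 of the day 3 minusFoxp3 libraries called 9 and 5 genes at day 3, those without replicates 1 or 2 of day 3 plusFoxp3 4 and 5, and those without replicates 1 or 2 of day 7 plusFoxp3 91 and 102. For day 7 the count was 10 and 11 without replicates 1 and 2 of day 3 plusFoxp3, 4 and 5 without those of day 7 minusFoxp3, and 10 and 114 without those of day 7 plusFoxp3.

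**Figure D4:**
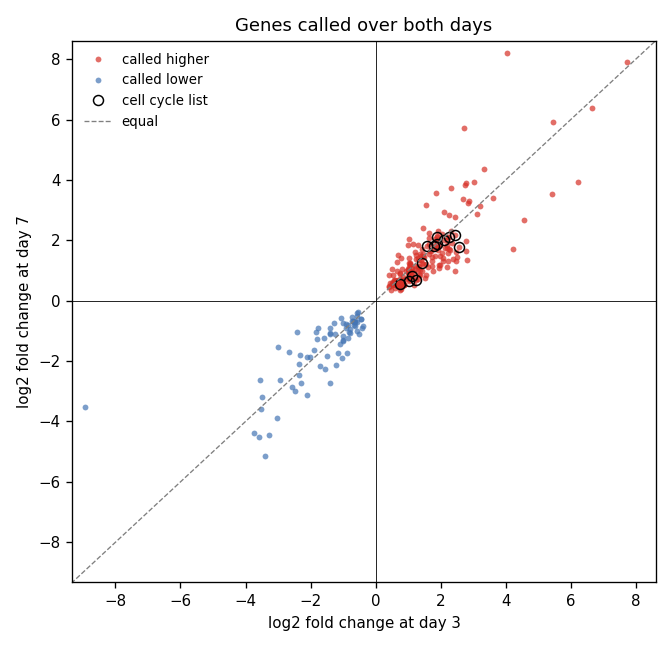
Log2 fold change at day 7 (y axis) against day 3 (x axis) for the 261 genes called over both days, in red if higher and blue if lower, with members of the cell cycle list circled and the dashed line at equal values. All points lie in the lower left and upper right quadrants, which the call over both days favours.

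Itgae had log2 fold changes of 2.26 at day 3 and 2.83 at day 7, and its plusFoxp3 level went on to 53.3 and 38.2 CPM at day 14 and 77.5 and 58.9 CPM at day 28. The 30 Treg genes together summed to 7015 and 6596 CPM at day 3 and 7874 and 6987 CPM at day 7 with Foxp3, against between 4978 and 6092 CPM without it. At days 14 and 28 the plusFoxp3 sums were 8525, 7715, 9133 and 8556 CPM, and GFP Treg cells had 10950 and 10330 CPM. The cell cycle sum behaved otherwise. At days 14 and 28 it was 1859 and 1982 CPM in the replicate 1 and 791 and 1038 CPM in the replicate 2 plusFoxp3 libraries, against between 715 and 928 CPM in the 4 minusFoxp3 libraries of those days. The replicate 2 library of day 14 thus lay within the minusFoxp3 range. In a fit of these 8 later libraries alone, 17 of the 18 cell cycle genes were above 0 with a median of 1.59, and 1 was called (1.83% of all genes were).

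The genes called at days 3 and 7 were followed into libraries that took no part in calling them. In the 4 untreated day 0 libraries, 101 of 178 genes called higher were above 0 (56.7%, against 51.1% of 19694 genes) with a median of 0.13, and 39 of 69 called lower were below 0 (56.5%, against 48.9%). In that fit 0 genes were called by edgeR, with 616 at an unadjusted p under 0.05. In a fit of days 0, 3 and 7 the day 0 difference called 1 gene, Esr1 (0.00489%), and DESeq2 called 35. Leaving out replicate 2 of day 0 plusFoxp3 raised that count to 1340, 186 higher and 1154 lower. In the 8 libraries of days 14 and 28 all 188 measured genes of the higher set were above 0 (51.5% of 19871 genes were) with a median of 1.30, and 58 of them were called higher there, where 1.11% of all genes were. All 69 of the lower set were below 0 with a median of -1.08, and 44 were called lower, where 0.72% of all genes were. In the active libraries of days 3 and 7, 177 of 187 were above 0 (46.2% of all genes were) with a median of 0.63, and 62 of 70 were below 0 with a median of -0.82. There 17 and 16 of them were called in the same direction, against 0.149% and 0.226% of all genes, or 0.375% in either direction. The later libraries have the same genotypes and sorting gates as the early ones. The active libraries share the genotypes and the reporter gates but were sorted as CD62L low cells.

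**Figure D5:**
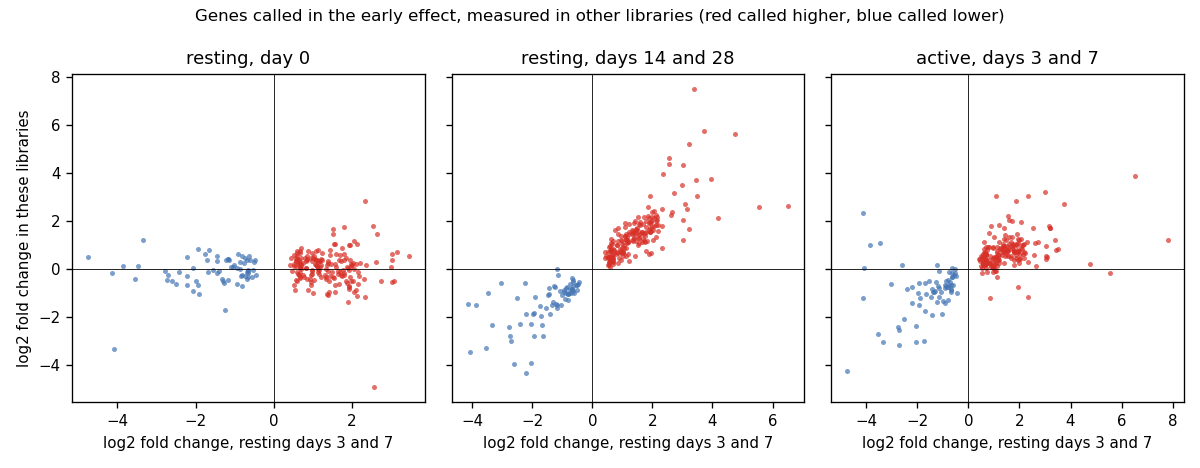
Log2 fold change of plusFoxp3 over minusFoxp3 in other libraries (y axis) against that in resting cells of days 3 and 7 (x axis) for genes called there, in red if higher and blue if lower. At day 0 the points spread around 0, and at days 14 and 28 every measured point keeps its side.

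Foxp3 at day 0 stood at 77.0 and 67.9 CPM in minusFoxp3 and 80.7 and 70.5 CPM in plusFoxp3 libraries, before any recombination was induced. The early effect differed from that at day 0 for 5 genes (0.0244%), 2 higher (0.00978%) and 3 lower (0.0147%), among them Foxp3 (difference in log2 fold change 2.93, SE 0.26, adjusted p = 0.00223), Thy1 (-2.67, SE 0.25, adjusted p = 0.00223) and Gm39323 (-2.46, SE 0.31, adjusted p = 0.0284). Without replicate 2 of day 0 plusFoxp3 it differed for 1252, 1123 higher and 129 lower. The effect of days 14 and 28 differed from the early one for 0 genes by edgeR, with 1621 at an unadjusted p under 0.05 and 76 by DESeq2. Klrg1, a receptor of terminally differentiated T cells, was at most 1.59 CPM in the early plusFoxp3 libraries, 2.99 and 0.831 CPM at day 14, 13.8 and 4.99 CPM at day 28 and 25.7 and 33.7 CPM in GFP Treg cells (late minus early difference 5.395, adjusted p = 0.422).

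The active and resting early effects differed for 2 genes (0.0096%), a count that lay between 0 and 21 when single libraries were left out. Il2rb, which rose in resting cells, was at 748, 645, 645 and 729 CPM without and 665, 657, 644 and 607 CPM with Foxp3 in active cells (difference -1.15, SE 0.14, adjusted p = 0.0158). Active cells without Foxp3 therefore stood between the 2 resting arms. Il17f, a cytokine of type 17 helper cells, was at 305, 222, 375 and 275 CPM without and 7.16, 14.2, 3.27 and 4.39 CPM with Foxp3 in active cells. In resting cells it was at most 3.37 CPM in any of the 8 libraries (difference -3.89, SE 0.47, adjusted p = 0.0158).

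Early restored cells were last set against GFP Treg cells. Of 20674 genes 362 differed (1.75%), 222 higher and 140 lower in GFP Treg cells. The number was 124 and 181 without replicates 1 and 2 of GFP Treg and 210 and 212 without replicates 1 and 2 of day 3 plusFoxp3. Foxp3 was at 657 and 636 CPM in GFP Treg cells, a difference of 0.23 on the log2 scale from early plusFoxp3 cells (SE 0.15, adjusted p = 0.616). Of the 30 genes known to be higher in Treg cells 10 were higher in GFP Treg cells (1.07% of all genes were) and none lower, and of the 15 known to be lower 5 were lower (0.677%). Itgae stood at 199 and 231 CPM (difference 3.55, SE 0.16, adjusted p = 6.63e-06), Lrrc32 at 425 and 420 CPM (1.11, adjusted p = 0.00981) and Il2rb at 1861 and 1574 CPM (0.67, adjusted p = 0.0164). For Il2ra, at 789 and 725 CPM, the difference was 0.48 (SE 0.13, adjusted p = 0.111). Ikzf2, which had not passed the early test, stood at 396 and 408 CPM (0.94, adjusted p = 0.00397). Among genes that fall, Tcf7 was at 476 and 443 CPM (-1.13, adjusted p = 0.000912), Pde3b at 3.23 and 4.15 CPM (-3.03, adjusted p = 0.00152), Sox4 at 26.1 and 17.6 CPM (-1.47, adjusted p = 0.0387) and Ggt5 at 0.146 and 0.136 CPM (-5.44, adjusted p = 0.000679).

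By size the rule also named Klrg1, Fcmr and Abhd12b as higher and Mstn, Sntg2 and Scart2 as lower in GFP Treg cells. Fcmr, an Fc receptor gene, was at 21.93 and 21.96 CPM against at most 1.44 CPM in early plusFoxp3 cells (4.76, SE 0.41, adjusted p = 0.000673). Abhd12b read 21.2 CPM in 1 GFP Treg library and 1.07 CPM in the other. Mstn, which encodes the growth inhibitor myostatin, had 0 counts in both GFP Treg libraries and between 3.81 and 9.38 CPM in early plusFoxp3 cells, after between 10.8 and 44.7 CPM in minusFoxp3 cells. Of the 18 cell cycle genes all 18 were below 0 in GFP Treg against early plusFoxp3 cells (median -0.58), and none was called. The GFP Treg mice were untreated and carried neither Cre nor the STOP cassette, which cannot be told apart from the time their cells had spent with Foxp3.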

How the data were processed

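Resting and active cells were sorted from spleen and lymph nodes of mice, and poly(A) RNA was amplified (SMART-Seq v4) and made into libraries that do not mark strand. Per the file headers, the authors counted read pairs with both ends aligned per GENCODE vM30 gene name with featureCounts on GRCm39, without a strand option, and the deposited values are raw counts. The aligner is named differently in the methods and in the submitters' notes. Chromosome M genes have no counts in these files.

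Counts were tested with edgeR 4.0.16 (quasi-likelihood, TMM scaling, robust dispersion) in R 4.3.3 over genes that averaged 10 or more counts in the libraries of each fit, with DESeq2 1.42.0 as an alternative. The early effect was 1 plusFoxp3 difference shared by days 3 and 7, with the day as a block. In the tests of a difference from it, the mean of the day 3 and day 7 effects was used. P-values were Benjamini-Hochberg adjusted over all genes tested. The fit was first tested on simulated data. Libraries held between 35097257 and 57419138 counts, and with 2 libraries a group the spread between replicates also limits what the tests can call. The methods call the replicates independent biological replicates, and every pair differed by more than sampling noise.

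The members and gene lists were chosen with earlier results of these data known. Named were Foxp3, Thy1, Cd4 and Esr1; up to 12 genes in each direction by size among called genes with at least 100 counts on average and separate arms; up to 4 called members of each list by p; 11 genes always given; and up to 3 genes in each direction for each test of a difference. Gpr83, Nrp1, Prdm1, Ccna2, Cdk1, Top2a, Pcna, Bub1b, Capn11, Abcb11, Il2rg, Aurkb and Mcm2 were named outside this rule, after their values were seen. The 3 gamma delta T cell symbols and 2 respiratory chain symbols that did not match a gene name in the files were not analysed here. Alternatives tried were size factors by RLE, testing without a filter, a minimum mean of 50, DESeq2, a replicate block, single libraries left out, the libraries of 1 day alone and 1 fit of all 22 resting libraries. One gene that the rule named is not reported here. Promoter windows were read from GRCm39 with GENCODE vM39.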

Additional observations from a re-analysis of the deposited data

Results flagged for a closer look

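Of 116 groups of 4 values checked (named genes in each arm), 7 held a library far from the other 3 by Dixon's criterion, and chance marks about 1 in 20 groups. Ctla4 was high in 1 library of each arm, at 549.2 CPM in replicate 2 of day 3 minusFoxp3 (others 296.3 to 321.9 CPM) and at 550.8 CPM in replicate 1 of day 7 plusFoxp3 (others 397.6 to 411.7 CPM). The same day 7 plusFoxp3 library had Ccr2 at 59.41 CPM (others 17.07 to 22.5 CPM) and Satb1 at 433.9 CPM (others 654.4 to 697.7 CPM). Replicate 2 of day 7 minusFoxp3 had Havcr2 at 0.6545 CPM (others 0.02277 to 0.08656 CPM). Replicate 1 of day 3 plusFoxp3 had Esr1 at 16.75 CPM (others 18.87 to 19.3 CPM), and replicate 2 had Tst at 2.009 CPM (others 1.214 to 1.311 CPM).

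The early effect differed from the day 0 difference for 5 genes by edgeR's interaction test. These were Foxp3 (2.925 on the log2 scale, adjusted p = 0.002233), Thy1 (-2.668, adjusted p = 0.002233), Gm39323 (-2.455, adjusted p = 0.02844), Capn11 (-8.937, adjusted p = 0.01459) and Abcb11 (9.146, adjusted p = 0.04971). Capn11, a calpain protease gene, had 326 and 173 counts in day 0 plusFoxp3 and 6 and 4 counts in day 0 minusFoxp3 libraries. In the early libraries it had 16, 14, 57 and 228 counts in minusFoxp3 and between 2 and 7 counts in plusFoxp3. Abcb11, a bile salt transporter gene, had 0 counts in both day 0 plusFoxp3 libraries, 30 and 29 counts in day 0 minusFoxp3, and between 8 and 72 counts in the early libraries, so its fitted value is no bound on the size. Both genes were named after their values were seen.

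The active and resting early effects differed for Il2rb (-1.15, adjusted p = 0.01578) and Il17f (-3.885, adjusted p = 0.01578).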

How the results depend on the processing

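The direction of the 58 named genes' early effect held under every alternative. The early effect called 261 genes, and 1204 with no count filter, 986 by DESeq2, 127 in 1 fit of all 22 resting libraries, and from 48 to 283 when single libraries were left out. The day 3 effect called 1039, 850 and 10 under the first 3 of these, 204 in its own 4 libraries and from 4 to 102 without single libraries. The day 7 effect called 595, 309 and 12, 8 in its own 4 libraries and from 4 to 114. Day 7 against day 3 called 263 with no filter, 14 by DESeq2 and from 0 to 1. The day 0 effect called 182, 35 and from 0 to 1340, and early against day 0 called 399, 159, 3 in 1 fit of all resting libraries and from 2 to 1252, both highest counts coming without replicate 2 of day 0 plusFoxp3. Their balance then turned, from 1 higher and 0 lower to 186 and 1154 at day 0, and from 2 higher and 3 lower to 1123 and 129 for early against day 0. Late against early called 346, 76, 1 in 1 fit and from 0 to 1. Active against resting called 451 with no filter, 106 by DESeq2 and from 0 to 21. GFP Treg against early plusFoxp3 called 1387, 928 and from 124 to 398. Where a library was left out, the lone sample of its group was taken to vary like the others. The cause of these shifts was not tested.

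No label ties same-numbered replicates to a shared litter, batch or day. With 2 pairs a day, their deviations correlated at 0.031 at resting day 3 and 0.144 at resting day 7, and at 0.047, 0.016 and 0.110 at resting days 0, 14 and 28 and 0.121 and 0.021 at active days 3 and 7, so whether the numbers pair the samples was not settled. With the replicate number as a block the early effect called 207 genes (278 with 1 block over both days), day 3 called 79, day 7 called 34, GFP Treg against early plusFoxp3 called 478, and the tests of day 0, early against day 0 and active against resting each called 0.

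Of the 58 named genes, RLE size factors changed no call, the block ended 4 calls (Mtfr2, Htr2a, Bbc3 and Cacna1f) and 1 fit of all resting libraries ended 11 (among them Pif1, Tnfrsf8, Wnt5b, Il4, Cd40lg, Cish, Tnfrsf1b, Tnfsf8, Bbc3 and Syp). Over the 8 fits that left out a library, calls of named genes were lost 88 times and gained 1 time, with the direction kept in each. Depth limits genes such as Klrg1, Havcr2 and E230034D01Rik, which had few counts in 1 arm, and each arm held 2 libraries a day.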
